A study of Mus musculus with 8 samples.

Results

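The 4 arrays described here measured how splenic T cells that lack Lsp1 answered stimulation of their antigen receptor. They were chosen by title, as the 2 arrays of Lsp1-deficient (KO) T cells given antibodies against CD3 and CD28 and the 2 arrays of KO T cells kept in medium, out of 8 arrays in the series. Lsp1 encodes leukocyte-specific protein 1, which binds filamentous actin in white blood cells, and the study asks about its role in migrating T cells in rheumatoid arthritis. The KO mice carry the Lsp1 deletion on a C57BL/6 background after 10 backcross generations, and the 4 remaining arrays hold age- and sex-matched C57BL/6 wild-type (WT) T cells under the same pair of conditions. Mice were 8 to 12 weeks old unless stated otherwise, stimulation lasted 6 h, and every RNA had an integrity number above 9.5. The labels place the RNA in cells of the spleen called T cells. How those cells were separated, which part of Lsp1 was removed and how long the medium cultures ran are not given in the sources used here. No label says whether replicates came from different mice. The p-values therefore cover only how these samples vary, and that variation may be technical. Within each pair below, the value of replicate 1 comes first.

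Engagement of CD3 stands in for recognition of antigen by the T cell receptor, and CD28 gives the second, costimulatory signal. Together they start calcium, MAP kinase and NF-kappa-B signalling within minutes. Immediate early transcription factors follow, then cytokines and their receptors, and later the growth programme that precedes division. Interferon-gamma and interleukin-2 released in the culture act back on the same cells through JAK and STAT proteins, so a culture of several hours holds both direct and secondary responses. Resting T cells meanwhile carry a quiescence programme that keeps them small and circulating.

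Levels are normalized log2 signals, the log2 of the scanner's processed signal minus the 75th percentile of that array, so 0 is the array's 75th percentile and a step of 1 is a doubling. The share of probes well above background lay between 58.4% and 69.2% over the arrays, and 15138 genes were tested. Lsp1 signal stood at 3.64 and 3.48 on the medium arrays and 3.68 and 3.65 on the stimulated arrays of KO cells, and at 7.47 and 7.23 in WT medium and 7.05 and 6.98 in stimulated WT cells, so all 4 KO arrays were below all 4 WT arrays. Stimulation of KO cells moved it by 0.11 ± 0.13, adjusted p = 0.647 (limma). Against WT cells it was lower by 3.79 in medium (adjusted p = 0.00117) and 3.35 after stimulation (adjusted p = 0.00248), yet well above background on every KO array. Of 14 T cell identity genes tested, none was called changed in KO cells. With 5.79% of all genes called higher and 2.23% lower, a count of 0 in so short a list does not set it apart. The change was negative in 11 of the 14, with a median of -0.20, beside -0.08 over all genes. With the replicate number added to the fit as a block within genotype, 1 was called higher and 3 lower. Cd3d, a CD3 subunit, stood at 7.03 and 6.61 on the medium arrays and 6.70 and 6.30 on the stimulated arrays.

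The KO replicates differed in transcripts of other blood cells. Over 18 tested neutrophil and precursor markers, the median signal relative to the KO medium mean was -2.06 and 2.06 on the medium arrays and -2.52 and 0.86 on the stimulated arrays, so both arrays numbered 2 were high. The summed linear level of these genes, in multiples of the array's 75th percentile, was 194 and 818 in medium and 154 and 470.3 after stimulation. Mpo, the myeloperoxidase of neutrophil granules, stood at 4.49 and 7.63 on the medium arrays and 3.61 and 6.67 on the stimulated arrays. Over 19 erythroid and platelet markers the medians were -0.90, 0.90, -1.09 and 1.67 in the same order, with summed levels of 43.5, 319, 49.3 and 389. Hbb-bt, a beta globin, stood at 3.84 and 7.05 on the medium arrays and 3.99 and 7.39 on the stimulated arrays. The 21 monocyte, macrophage and dendritic cell markers had summed levels of 222, 232, 180.3 and 210.4, the 18 B cell markers of 65, 71.2, 46.3 and 49.8, and the 17 natural killer cell markers of 77.3, 75.8, 52.7 and 55.1. Each of these genes was well above background on at least 1 KO array, and none of the neutrophil, erythroid or monocyte lists had a member called changed by stimulation. All 18 neutrophil markers had a negative change, with a median of -0.87 in KO and -0.65 in WT cells. The gap between replicates widens their errors, so the lack of calls does not show that they were unchanged. With the replicate block within genotype, 10 neutrophil markers were called lower, 2 erythroid markers higher, and 3 monocyte markers each way. Between replicates the root mean square SD (log2) reached 0.431 for the medium and 0.454 for the stimulated KO arrays, against 0.252 and 0.250 for WT. The ± values and p-values given here pool the KO and WT arrays, so they can understate the spread of the KO replicates. In RNA from a mixed culture, fewer cells of a type and less RNA per cell cannot be told apart.

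**Figure D1:**
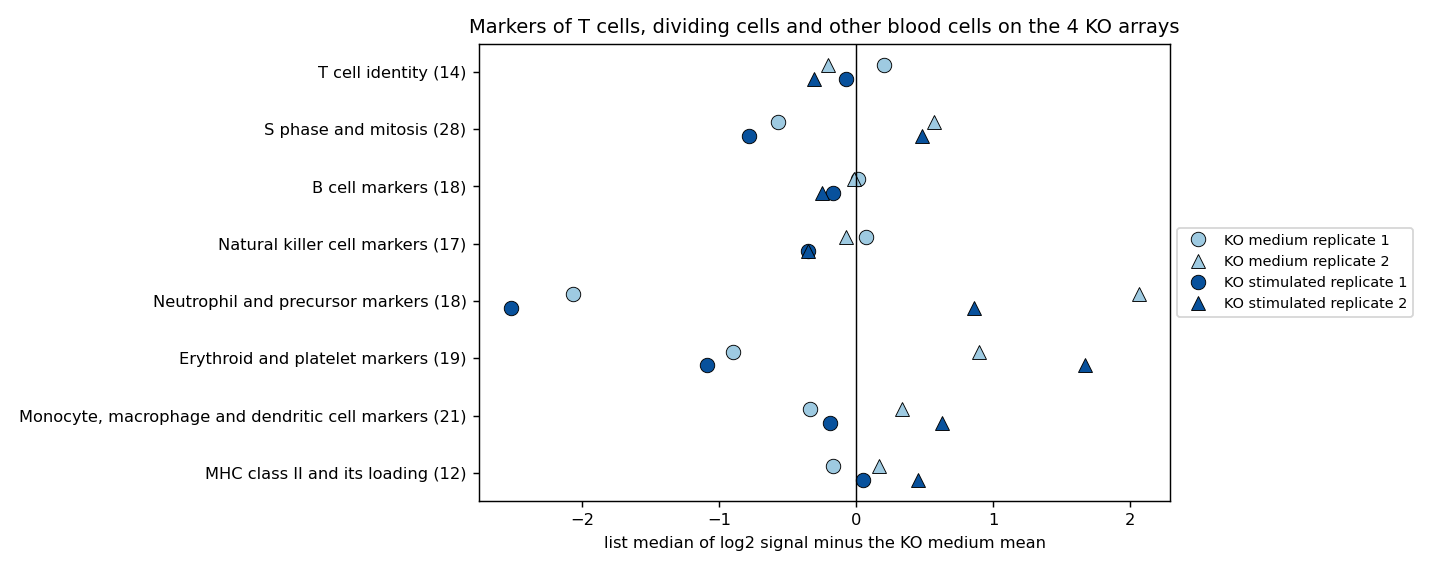
Median over each marker list (tested members in brackets) of the normalized log2 signal minus the gene's KO medium mean, for the 4 KO arrays, with circles for replicate 1, triangles for replicate 2, light points for medium and dark points for stimulated cells. The neutrophil, erythroid, monocyte and S phase lists separate replicate 2 from replicate 1 in both conditions, while the T cell identity list lies between -0.31 and 0.21.

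Stimulation called 1215 genes in KO cells at a limma p adjusted by Benjamini-Hochberg below 0.05. Of these, 877 were higher, 5.79% of the genes tested, and 338 were lower, 2.23%. A change of at least 2-fold was met by 528 of the higher and 162 of the lower genes. The median log2 change of all tested genes was -0.08, and the counts and medians of the gene lists stand beside these shares and this median. In all 1215 called genes, both stimulated arrays lay on one side of both medium arrays, as they did in 51.4% of all genes tested. The count rested on the fit and on single arrays. With a replicate block within genotype it was 2779, with 1354 higher and 1425 lower, so the excess of higher genes was then absent. Leaving out KO medium replicate 1 gave 581 genes, and leaving out KO medium replicate 2 gave 361. Leaving out KO stimulated replicate 1 gave 1487, and leaving out KO stimulated replicate 2 gave 502. The count was 592 without either WT stimulated array, 778 without either WT medium array, and 37 with the 4 KO arrays alone, where the WT arrays no longer add to the estimate of spread. Called in each of the 4 fits that left out 1 KO array were 282 genes, 256 of them higher and 26 lower.

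The 4 genes that marked the stimulated state were chosen with earlier results of these data known, so their rise is no separate support. All 4 rose. Il2, the autocrine growth factor of T cells, stood at -3.08 and -3.29 on the medium arrays and 3.14 and 4.08 on the stimulated arrays. The stimulated arrays were more than 6 log2 units above both medium arrays, and the change was 6.79 ± 0.32, adjusted p = 0.000576. Irf4, a transcription factor whose level tracks the strength of receptor signalling, stood at 0.71 and 0.99 on the medium arrays and 4.84 and 5.0 on the stimulated arrays, with the smallest gap between replicates of the 4 genes after stimulation. Its change was 4.07 ± 0.14, adjusted p = 0.000365. Car12, a membrane carbonic anhydrase, stood at -4.18 and -4.44 on the medium arrays and 0.46 and 1.05 on the stimulated arrays, a change of 5.07 ± 0.21, adjusted p = 0.000435. Ubd, the ubiquitin-like modifier FAT10 induced by interferon-gamma and TNF, stood at -5.16 and -4.49 on the medium arrays and -0.50 and 1.51 on the stimulated arrays. Its stimulated arrays were 2.01 log2 units apart, though both lay above both medium arrays, and the change was 5.34 ± 0.64, adjusted p = 0.00817. With both KO arrays numbered 2 left out, the Ubd change was 4.67.

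**Figure D2:**
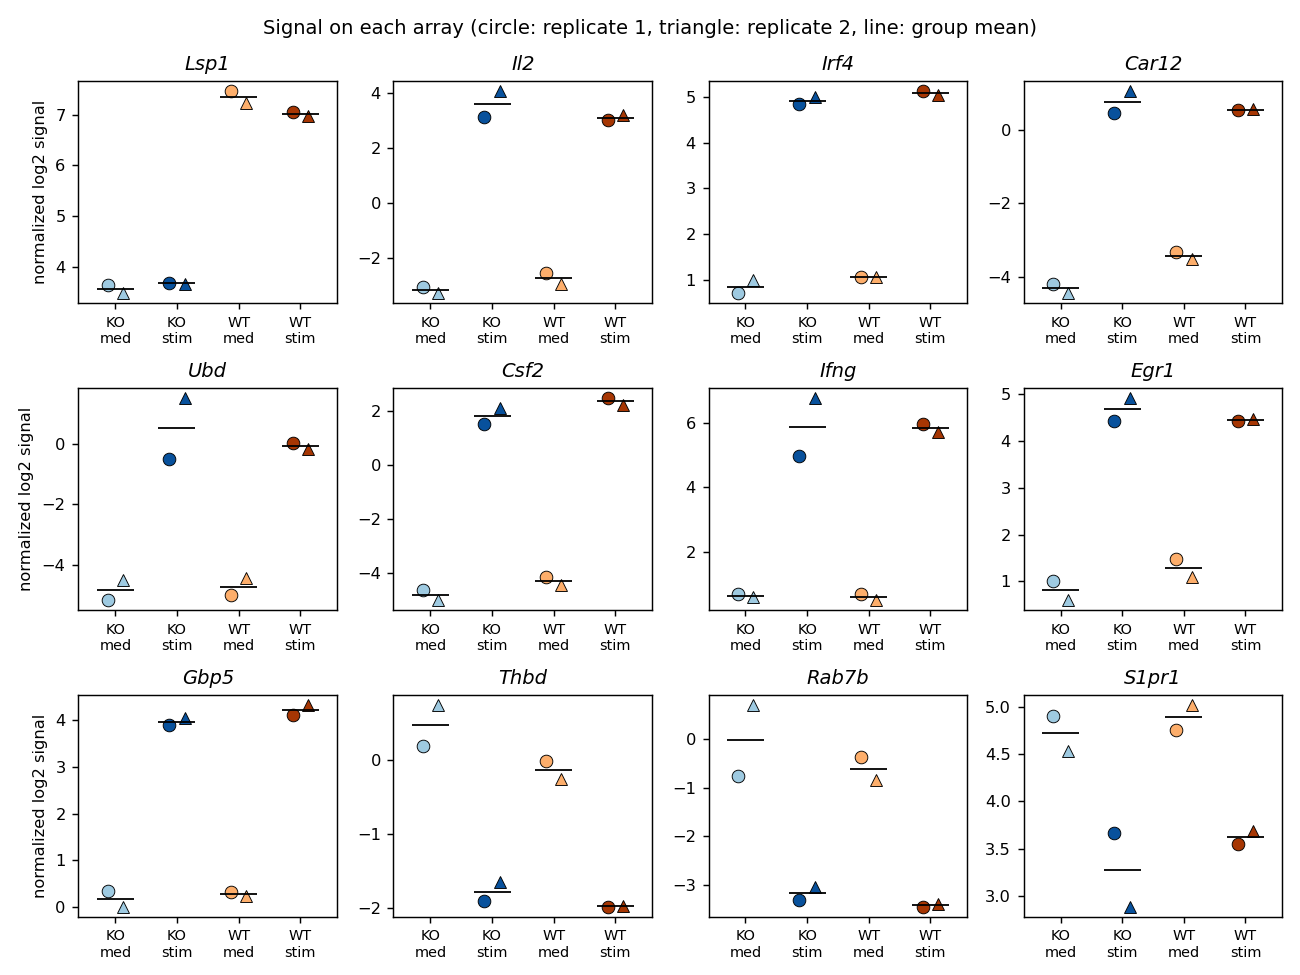
Normalized log2 signal (0 is the array's 75th percentile) of 12 genes on all 8 arrays, with circles for replicate 1, triangles for replicate 2 and a line at each group mean. Lsp1 separates the genotypes, Il2, Irf4, Car12, Ubd, Csf2, Ifng, Egr1 and Gbp5 rise with stimulation in KO cells, and Thbd, Rab7b and S1pr1 fall.

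The promoters of Il2 and Ubd are shown because they hold letters of the NFAT and NF-kappa-B sites, factors that T cell receptor signalling is known to activate. Promoter sequences are from RefSeq (GRCm38.p6), and the runs printed are the 250 bases before the annotated start, 5′ to 3′ on the gene's strand. Il2 (chr3:37125955-37126204, minus strand) is shown with matches to GGAAAA, the core recognised by NFAT, in capitals. They begin 137 and 48 bases before the start, the second on the opposite strand. Ubd (chr17:37193642-37193891, plus strand) is shown with a match to GGGANNTCC, a form of the NF-kappa-B site, in capitals, 14 bases before the start.
Il2: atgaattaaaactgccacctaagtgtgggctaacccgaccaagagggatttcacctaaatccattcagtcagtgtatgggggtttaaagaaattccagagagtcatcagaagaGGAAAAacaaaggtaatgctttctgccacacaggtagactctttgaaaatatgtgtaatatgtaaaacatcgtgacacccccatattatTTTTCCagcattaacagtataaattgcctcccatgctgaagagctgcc
Ubd: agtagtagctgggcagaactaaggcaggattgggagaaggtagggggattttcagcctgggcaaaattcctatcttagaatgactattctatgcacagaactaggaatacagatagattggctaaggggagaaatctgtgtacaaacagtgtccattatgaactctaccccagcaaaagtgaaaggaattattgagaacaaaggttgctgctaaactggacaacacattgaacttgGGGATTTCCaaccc
Both strands were searched, in windows from 250 bases before to 50 after the start. GGAAAA was in 23.4% of all 32851 RefSeq promoters and GGGANNTCC in 4.30%. Of the T cell cytokines called higher that had a promoter in the table, 7 of 16 held GGAAAA, against 26.1% of all genes with a promoter. No match to these motifs or to the others searched (TGANTCA of AP-1, GAAANNGAA, CACGTG and the CArG box) was found in the windows of Irf4 and Car12, which says only that these letters are not there.

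Among immediate early factors, which need no new protein to be induced, 13 of 21 tested genes rose and 1 fell, and the list's median was 1.21. Egr1, a zinc-finger factor switched on through MAP kinase signalling, stood at 1.01 and 0.60 on the medium arrays and 4.43 and 4.92 on the stimulated arrays, and rose by 3.87 ± 0.23, adjusted p = 0.0011. Egr2, which shares its DNA-binding domain design with Egr1 and restrains T cell activation, stood at 0.24 and 0.18 on the medium arrays and 3.32 and 3.95 on the stimulated arrays, and rose by 3.42 ± 0.22, adjusted p = 0.00119. In both genes the replicates of a condition lay within 1 log2 unit. Nr4a1, an orphan nuclear receptor used as a reporter of receptor signalling, stood at 3.80 and 3.38 on the medium arrays and 6.69 and 7.15 on the stimulated arrays, and rose by 3.33 ± 0.21, adjusted p = 0.00114. Egr4 was not well above background on either medium array and rose at least 15.5-fold. An "at least" fold compares the brighter group's mean with a floor for the dimmer group, namely the lowest signal well above background on an array or the probe's own signal there, whichever is higher. Atf3, a stress-induced leucine zipper factor, rose by 2.61 ± 0.35, adjusted p = 0.0106, with stimulated arrays at 0.89 and 2.05. Jund stood at 5.51 and 5.19 on the medium arrays and 5.82 and 5.88 on the stimulated arrays, and its change of 0.50 ± 0.16, adjusted p = 0.114 did not pass. The called count was between 9 and 14 over the fits that left out 1 array. The member that fell, Klf6, chosen for mention after its value was seen, changed by -0.70 ± 0.14, adjusted p = 0.0348, and was not called when any 1 array was left out.

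Srf, the factor that binds the CArG box of many immediate early promoters, was itself called higher at 0.63 ± 0.10, adjusted p = 0.0192, and was likewise chosen for mention after its values were seen. Its signal was 2.06 and 1.95 on the medium arrays and 2.62 and 2.65 on the stimulated arrays. The 250 bases before its start (chr17:46556163-46556412, minus strand, GRCm38.p6) hold 2 CArG boxes (CC, then a run of 6 A or T, then GG), shown in capitals, beginning 82 and 62 bases before the start.
Srf: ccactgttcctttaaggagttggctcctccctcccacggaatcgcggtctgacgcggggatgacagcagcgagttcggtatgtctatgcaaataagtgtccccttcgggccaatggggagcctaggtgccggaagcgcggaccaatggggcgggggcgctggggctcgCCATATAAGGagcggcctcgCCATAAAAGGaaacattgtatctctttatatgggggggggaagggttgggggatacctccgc
A CArG box was in 1.63% of all promoters and, by gene, in 1.81% of all genes with a promoter. It was in the promoters of 2 of 10 immediate early genes called higher, and a match is a description of letters only.

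Among factors of the NF-kappa-B, NFAT, Batf and Irf families and their regulators, 18 of 38 rose and 1 fell, with a list median of 0.67. Myc, which drives growth of activated lymphocytes, stood at 0.35 and 0.71 on the medium arrays and 3.92 and 4.62 on the stimulated arrays, and rose by 3.74 ± 0.26, adjusted p = 0.00142. Nfkbid and Irf8 rose by 2.71 ± 0.20 and 2.34 ± 0.36, with adjusted p of 0.00193 and 0.0172. Nfkbid encodes a nuclear NF-kappa-B partner and Irf8 an interferon regulatory factor. Tbx21, the T-bet factor of type 1 helper cells, stood at 1.65 and 1.35 on the medium arrays and 3.46 and 3.98 on the stimulated arrays, and rose by 2.22 ± 0.23, adjusted p = 0.0055. Irf1, an interferon-induced transcription factor, stood at 5.87 and 5.42 on the medium arrays and 7.39 and 7.32 on the stimulated arrays, a change of 1.71 ± 0.16, adjusted p = 0.00393. For Myc, Tbx21 and Irf1, as for every called gene, no stimulated array overlapped a medium array. The number of higher members was 9 with either KO medium array left out and 8 with KO stimulated replicate 2 left out. The single lower member, Mxd4, an antagonist of Myc named here after its value was seen, changed by -1.05 ± 0.19, adjusted p = 0.026, and was called lower also without KO stimulated replicate 1 but in no other fit that left out 1 array.

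Of 25 T cell cytokine genes tested, 17 rose and none fell, with a median of 2.86. Csf2, which encodes GM-CSF, stood at -4.64 and -5.0 on the medium arrays and 1.53 and 2.13 on the stimulated arrays, and rose by 6.65 ± 0.24, adjusted p = 0.000389. Ifng stood at 0.67 and 0.58 on the medium arrays and 4.99 and 6.79 on the stimulated arrays, so the stimulated arrays were both far above medium but 1.79 apart. It rose by 5.26 ± 0.53, adjusted p = 0.00487. Il13, Il17a and Il9 were not well above background on any medium array of KO cells and well above it on both stimulated arrays. Il13, of type 2 helper cells, stood at 1.08 and 2.30 after stimulation and rose at least 217-fold (adjusted p = 0.0011). Il17a, of type 17 helper cells, stood at -1.66 and 0.17 and rose at least 40.1-fold (adjusted p = 0.00301). Il9 rose at least 10.9-fold. Lif, a cytokine of the interleukin-6 family also not well above background on the KO medium arrays, rose at least 27.5-fold. Ltb, the membrane partner of lymphotoxin, stood at 8.01 and 7.71 on the medium arrays and 7.68 and 7.42 on the stimulated arrays, a change of -0.31 ± 0.16 that did not pass.

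Relative to the KO medium mean, the cytokine median was 2.11 on stimulated replicate 1 and 3.61 on replicate 2. Neutrophil markers stood at -2.52 and 0.86 and erythroid markers at -1.09 and 1.67 on the same arrays. With both KO arrays numbered 2 left out, 16 of the 25 cytokines were still called higher. Over the fits that left out 1 array the count lay between 13 and 19.

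Of 14 chemokine genes tested, 9 rose and none fell, and the list's median was 3.95. Ccl1, a ligand of CCR8, was not well above background in medium, stood at 0.44 and 2.17 after stimulation, and rose at least 166-fold (adjusted p = 0.00159). Ccl17, a ligand of CCR4, stood at -4.19 and -3.58 on the medium arrays and 1.45 and 2.71 on the stimulated arrays, and rose by 5.97 ± 0.45, adjusted p = 0.00192. Ccl4, a chemokine that attracts lymphocytes and monocytes, stood at -0.21 and -0.21 on the medium arrays and 4.38 and 5.43 on the stimulated arrays, and rose by 5.11 ± 0.32, adjusted p = 0.00112. All 3 kept their calls in the 4 fits that left out 1 KO array. Xcl1, which attracts cross-presenting dendritic cells, rose by 4.36 ± 0.27, adjusted p = 0.00114. The CXCR3 ligands rose with a wide gap between replicates. Cxcl9 stood at -3.64 and -2.68 on the medium arrays and 1.38 and 4.87 on the stimulated arrays, and its change was 6.28 ± 1.04, adjusted p = 0.0208. Cxcl10 stood at 1.38 and 1.62 on the medium arrays and 4.78 and 6.90 on the stimulated arrays, and its change was 4.34 ± 0.62, adjusted p = 0.0127. Each kept its call in 2 of the 4 fits that left out 1 KO array. Ccl5, abundant in memory and cytotoxic cells, stood at 7.42 and 7.15 on the medium arrays and 6.84 and 6.74 on the stimulated arrays, a change of -0.50 ± 0.16 that did not pass. The chemokine count was between 7 and 10 when 1 array was left out, and the receptors of these ligands are taken up with the homing receptors.

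**Figure D3:**
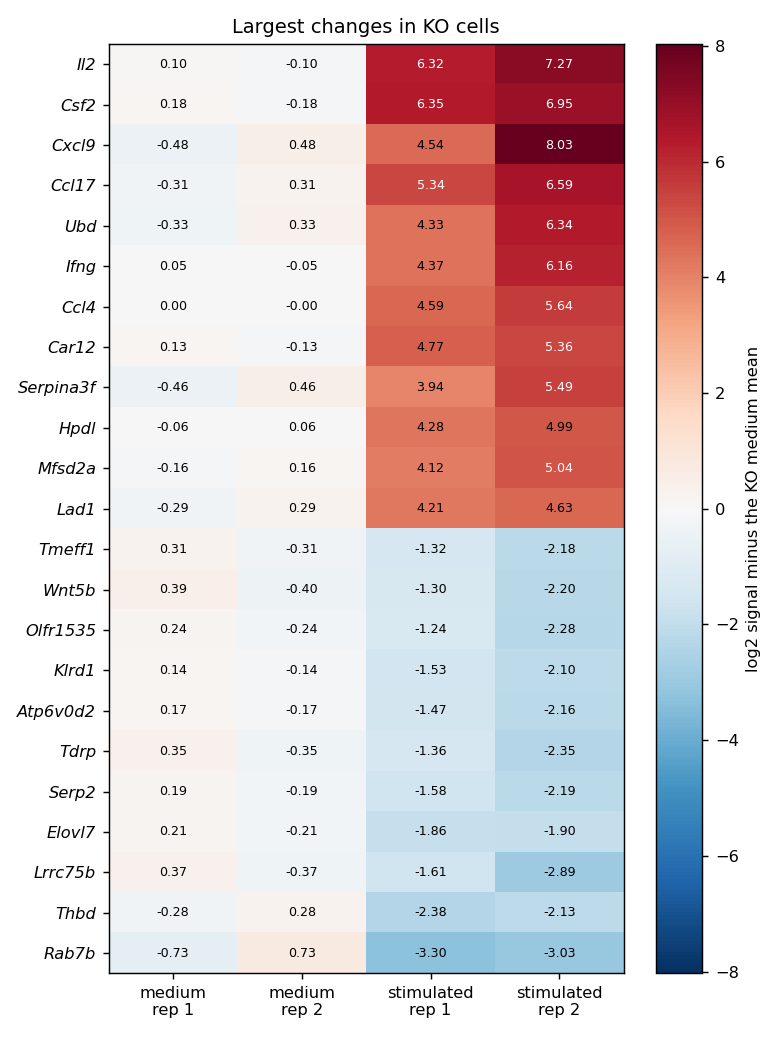
Normalized log2 signal minus the gene's KO medium mean on the 4 KO arrays, for genes among the 12 largest changes in each direction of called genes well above background on both arrays of both KO groups. Values are printed in each cell, and the scale runs from blue (lower) to red (higher). The widest gap between stimulated replicates is that of Cxcl9.

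In the TNF superfamily, whose ligands and receptors carry costimulation and death signals between cells, 11 of 19 genes rose and none fell, with a median of 1.0. Tnfsf14, the ligand LIGHT, stood at -0.73 and -0.57 on the medium arrays and 2.35 and 3.04 on the stimulated arrays, and rose by 3.35 ± 0.23, adjusted p = 0.00142. Cd70, the ligand of CD27, rose by 3.32 ± 0.32, adjusted p = 0.00412, and Cd40, best known from antigen-presenting cells, by 3.08 ± 0.42, adjusted p = 0.0116. Tnfrsf4, the costimulatory receptor OX40, stood at 5.33 and 4.97 on the medium arrays and 6.62 and 6.95 on the stimulated arrays, and rose by 1.64 ± 0.17, adjusted p = 0.00524. For Tnfsf14 and Tnfrsf4 the replicates lay within 1 log2 unit, and the conditions did not overlap, as in every called gene. Tnfrsf9, the receptor 4-1BB, stood at 2.87 and 2.91 on the medium arrays and 3.0 and 3.10 on the stimulated arrays, a change of 0.16 ± 0.19 that did not pass. The count of 11 was 6 with either WT medium array or KO medium replicate 2 or either WT stimulated array left out, 7 with KO medium replicate 1 left out and 5 with KO stimulated replicate 2 left out.

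Of 28 receptors for cytokines tested, 4 rose and none fell, with a median of 0.30. Il2ra, the CD25 chain that raises affinity for interleukin-2, stood at 1.28 and 0.87 on the medium arrays and 4.93 and 5.29 on the stimulated arrays, and rose by 4.04 ± 0.24, adjusted p = 0.0011. Il4ra stood at 1.63 and 1.04 on the medium arrays and 4.14 and 3.85 on the stimulated arrays, and rose by 2.66 ± 0.21, adjusted p = 0.00219. Stimulated and medium arrays were at least 2 log2 units apart for both chains. Il12rb2 and Il12rb1, the chains of the interleukin-12 receptor, rose by 1.52 ± 0.16 and 1.22 ± 0.16, with adjusted p of 0.00618 and 0.0111. Il7r, the survival receptor of resting T cells, stood at 6.17 and 5.73 on the medium arrays and 5.18 and 4.17 on the stimulated arrays, and its change of -1.28 ± 0.34 did not pass (adjusted p = 0.0807).

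Of 28 activation and costimulatory surface molecules, 11 rose and none fell, with a median of 0.42. Cd69, an early marker that holds cells in tissue, stood at 1.74 and 1.79 on the medium arrays and 4.04 and 4.75 on the stimulated arrays, and rose by 2.63 ± 0.24, adjusted p = 0.00363. Cd274, the ligand PD-L1, stood at 1.88 and 1.90 on the medium arrays and 4.69 and 4.67 on the stimulated arrays, with replicates within 0.02 of each other in both conditions, and rose by 2.79 ± 0.15, adjusted p = 0.000823. Cd160, Crtam and Pdcd1lg2, the last encoding PD-L2, rose by 2.65 ± 0.21, 1.89 ± 0.22 and 1.88 ± 0.26. Cd28, the costimulatory receptor engaged by the antibody, stood at 5.16 and 4.80 on the medium arrays and 4.75 and 4.09 on the stimulated arrays, a change of -0.56 ± 0.24 that did not pass. The count was 6 with KO medium replicate 2 left out.

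The pathway that cytokine receptors use was called higher in 13 of 19 STAT, Socs, Cish and Pim genes and lower in none, with a median of 0.95. Cish and Socs1, feedback inhibitors induced by STAT proteins, had the 2 largest changes. Cish stood at 2.33 and 2.03 on the medium arrays and 5.31 and 5.71 on the stimulated arrays, and rose by 3.33 ± 0.17, adjusted p = 0.000701. Socs1 stood at 3.38 and 2.85 on the medium arrays and 6.14 and 6.19 on the stimulated arrays, and rose by 3.05 ± 0.18, adjusted p = 0.0011. Both were called in the 4 fits that left out 1 KO array. Pim2, a survival kinase, Socs2, Socs3 and Stat2 rose by 1.75 ± 0.13, 1.67 ± 0.13, 1.64 ± 0.20 and 1.56 ± 0.12. Jak1 stood at 6.31 and 5.89 on the medium arrays and 5.61 and 5.26 on the stimulated arrays, and its change of -0.67 ± 0.20 did not pass. The count was 8 with KO medium replicate 2 left out.

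Of 29 genes of proximal receptor signalling, 3 rose and none fell, a share of 10.3%, and the median was -0.05. Ptpn6, the SHP-1 phosphatase, stood at 2.94 and 3.29 on the medium arrays and 4.42 and 4.42 on the stimulated arrays, and rose by 1.31 ± 0.14, adjusted p = 0.00651. The others called were Lcp2, the adaptor SLP-76, at 0.96 ± 0.15, and Ptprc, the CD45 phosphatase, at 0.66 ± 0.13. Lck, the kinase that starts the cascade, stood at 7.42 and 7.02 on the medium arrays and 6.94 and 6.82 on the stimulated arrays, a change of -0.34 ± 0.16 that did not pass. The count was 1 with KO medium replicate 2 or either WT stimulated array or KO stimulated replicate 2 left out. Feedback regulators of the ERK pathway rose in 8 of 19 genes, with none lower and a median of 0.55. Map3k8, a kinase upstream of ERK, rose by 2.15 ± 0.27, adjusted p = 0.00937, and Spry1, an inhibitor of it, stood at -0.12 and -0.34 on the medium arrays and 1.40 and 1.84 on the stimulated arrays, and rose by 1.86 ± 0.21, adjusted p = 0.00678. Dusp4 and Dusp5, nuclear phosphatases of ERK, rose by 1.05 ± 0.13 and 1.05 ± 0.22. Dusp2 stood at 6.30 and 6.11 on the medium arrays and 6.33 and 6.42 on the stimulated arrays, a change of 0.17 ± 0.12 that did not pass. The ERK feedback count was 5 with either WT medium array or either KO stimulated array left out, 4 with KO medium replicate 1 or either WT stimulated array left out and 3 with KO medium replicate 2 left out.

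Genes known as targets of interferon-gamma rose together. What raised them in these cultures was not tested. All 17 guanylate-binding proteins and immunity-related GTPases tested, large GTPases that act on intracellular pathogens, were called higher, with a median of 2.23, and all 17 stayed called in each of the 8 fits that left out 1 array. Gbp5 stood at 0.34 and 0.01 on the medium arrays and 3.89 and 4.04 on the stimulated arrays, and rose by 3.79 ± 0.16, adjusted p = 0.00043. Gbp2 stood at 4.05 and 4.33 on the medium arrays and 7.72 and 7.75 on the stimulated arrays, and rose by 3.54 ± 0.22, adjusted p = 0.0011. Gbp6 and Gbp7 rose by 3.52 ± 0.22 and 2.71 ± 0.11. For these 4 genes the stimulated replicates differed by no more than 0.15, and lay more than 2 log2 units above both medium arrays. The median of the list was 2.29 and 2.14 above the KO medium mean on the stimulated arrays. Members of these families resemble each other in sequence, so a probe may also read a close relative.

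The promoters of 3 of them are shown because they hold letters of the element that interferon-activated factors bind. The 250 bases before the start of Gbp2 (chr3:142620413-142620662, plus strand), Gbp5 (chr3:142496684-142496933, plus strand) and Gbp7 (chr3:142530086-142530335, plus strand), from RefSeq, GRCm38.p6, are printed with matches to GAAANNGAA, the core of the interferon-stimulated response element, in capitals. All 3 matches lie on the opposite strand and begin 58, 164 and 52 bases before the start.
Gbp2: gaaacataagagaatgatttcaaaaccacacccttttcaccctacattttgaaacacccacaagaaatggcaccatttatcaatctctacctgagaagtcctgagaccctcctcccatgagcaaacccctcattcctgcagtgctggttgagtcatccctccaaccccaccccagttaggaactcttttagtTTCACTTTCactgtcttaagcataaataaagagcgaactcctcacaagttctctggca
Gbp5: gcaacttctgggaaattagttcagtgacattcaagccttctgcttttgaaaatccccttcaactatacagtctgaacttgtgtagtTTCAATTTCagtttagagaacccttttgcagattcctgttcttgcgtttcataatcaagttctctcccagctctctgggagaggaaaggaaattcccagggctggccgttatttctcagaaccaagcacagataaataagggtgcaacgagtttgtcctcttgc
Gbp7: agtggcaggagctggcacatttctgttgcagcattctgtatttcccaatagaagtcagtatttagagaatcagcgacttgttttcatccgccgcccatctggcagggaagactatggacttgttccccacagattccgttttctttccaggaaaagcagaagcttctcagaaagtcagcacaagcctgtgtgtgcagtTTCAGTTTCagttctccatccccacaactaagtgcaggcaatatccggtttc
GAAANNGAA was in 8.56% of all promoters of this length and in 14.5% of those of genes called higher. Among list members called higher with a promoter in the table, it was held by 9 of 10 guanylate-binding and immunity-related GTPase genes and by 13 of 18 interferon-stimulated antiviral genes. By gene, 9.76% of all genes with a promoter held it.

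Interferon-stimulated antiviral genes rose in 24 of 31 members tested and fell in none, with a median of 1.51. Oas2, which senses double-stranded RNA, stood at 0.31 and 0.30 on the medium arrays and 3.27 and 4.03 on the stimulated arrays, and rose by 3.34 ± 0.29, adjusted p = 0.00301. Oasl2 stood at 0.61 and 0.98 on the medium arrays and 3.70 and 4.16 on the stimulated arrays, and rose by 3.14 ± 0.20, adjusted p = 0.00114. Ifit3 and Zbp1, a sensor of Z-form nucleic acid, rose by 2.44 ± 0.17 and 2.32 ± 0.17. In these 4 genes, as in every called gene, no stimulated array overlapped a medium array. Isg15, a ubiquitin-like protein, stood at 3.20 and 3.51 on the medium arrays and 5.12 and 6.52 on the stimulated arrays, so replicate 2 was the higher in each condition, and it rose by 2.46 ± 0.42, adjusted p = 0.023. Ifitm3 stood at 0.70 and 2.46 on the medium arrays and 1.03 and 3.55 on the stimulated arrays, where medium replicate 2 exceeded stimulated replicate 1, and its change of 0.72 ± 0.89 did not pass. The list median was 1.06 and 1.80 above the KO medium mean on the stimulated arrays, beside neutrophil marker medians of -2.52 and 0.86. The count of 24 was 15 with KO medium replicate 1 or either WT stimulated array left out and 13 with KO medium replicate 2 left out. It was 15 with both KO arrays numbered 2 left out.

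Antigen processing for MHC class I rose in 10 of 18 genes, with none lower and a median of 0.60. Beside Ubd, Tap1, a peptide transporter chain, stood at 2.01 and 1.67 on the medium arrays and 2.77 and 2.71 on the stimulated arrays, and rose by 0.90 ± 0.16, adjusted p = 0.0234. Tapbp, tapasin, stood at 4.67 and 4.56 on the medium arrays and 5.48 and 5.50 on the stimulated arrays, and rose by 0.88 ± 0.10, adjusted p = 0.00817. Nlrc5, the transcriptional activator of the class I genes, and Psmb9, an immunoproteasome subunit, rose by 0.94 ± 0.13 and 0.78 ± 0.11. B2m, beta-2-microglobulin, the light chain of class I molecules, stood at 8.08 and 8.04 on the medium arrays and 8.10 and 8.12 on the stimulated arrays, a change of 0.05 ± 0.11 that did not pass. The count of 10 was 6 with KO medium replicate 1 or KO stimulated replicate 1 left out, 3 with KO medium replicate 2 or KO stimulated replicate 2 left out and 4 with either WT stimulated array left out. Of 12 MHC class II genes, H2-DMa, a peptide-exchange chain, stood at 1.89 and 1.93 on the medium arrays and 4.32 and 4.18 on the stimulated arrays, and rose by 2.34 ± 0.12, adjusted p = 0.000684. H2-DMb2 rose by 1.02 ± 0.18, adjusted p = 0.0238. The class II count of 2 was 1 with either WT medium array or either KO medium array or KO stimulated replicate 2 left out.

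Of 46 ribosome biogenesis genes, 36 rose (78.3%) and none fell, and the list's median was 1.19. The polymerase I subunit gene Polr1b stood at 0.54 and 0.48 on the medium arrays and 2.17 and 2.58 on the stimulated arrays, and rose by 1.86 ± 0.17, adjusted p = 0.00366. Nolc1, a nucleolar chaperone, stood at 2.81 and 2.83 on the medium arrays and 4.52 and 4.99 on the stimulated arrays, and rose by 1.93 ± 0.17, adjusted p = 0.00297. Grwd1, Bysl, Gnl3 and Rrp1b, nucleolar assembly factors, rose by 1.98 ± 0.18, 1.95 ± 0.21, 1.88 ± 0.17 and 1.83 ± 0.19. In each, medium replicates lay within 0.2 of each other and stimulated replicate 2 was the higher. Npm1, nucleophosmin, stood at 7.31 and 7.14 on the medium arrays and 7.28 and 7.51 on the stimulated arrays, a change of 0.17 ± 0.15 that did not pass. Of 48 cytosolic ribosomal proteins tested none was called, the median was -0.10, beside -0.08 over all genes, and every member lay between -0.19 and 0.02. The biogenesis count was 18 with KO medium replicate 2 left out. CACGTG, the E-box that Myc binds, was in the promoters of 8 of 32 called biogenesis genes, and in those of 8.09% of all genes and 15.2% of called-higher genes.

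Of 31 genes of one-carbon, nucleotide and polyamine synthesis, 13 rose and none fell, with a median of 0.66. Shmt1, a serine hydroxymethyltransferase, stood at -3.56 and -3.18 on the medium arrays and 0.12 and 0.80 on the stimulated arrays, and rose by 3.83 ± 0.24, adjusted p = 0.00114. Srm, spermidine synthase, stood at 1.06 and 1.11 on the medium arrays and 3.69 and 4.31 on the stimulated arrays, and rose by 2.92 ± 0.20, adjusted p = 0.00142. As in every called gene, the conditions were clear of each other in these 2 genes. Ctps, CTP synthase, Nampt, of NAD salvage, and Mthfd1 rose by 2.03 ± 0.25, 1.95 ± 0.23 and 1.66 ± 0.18. The count of 13 was 8 with KO medium replicate 1 left out and 7 with KO medium replicate 2 left out. Among 21 aminoacyl-tRNA synthetase genes, 7 rose and none fell, with a median of 0.56. Wars, which is also an interferon-gamma target, stood at 4.43 and 4.19 on the medium arrays and 6.20 and 6.25 on the stimulated arrays, and rose by 1.92 ± 0.12, adjusted p = 0.00114. Qars changed by -0.14 ± 0.11 and did not pass. The synthetase count was 3 with either WT medium array left out, 2 with KO medium replicate 1 or either WT stimulated array or KO stimulated replicate 2 left out and 1 with KO medium replicate 2 left out.

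Of 18 transporters 3 rose (16.7%, beside 5.79% of all genes), among them Slc7a1, which carries arginine, by 1.48 ± 0.19, adjusted p = 0.0101, and Slc1a5, which carries glutamine, by 0.78 ± 0.12, adjusted p = 0.0168. The transporter count was 1 with KO medium replicate 1 or KO stimulated replicate 2 left out, 0 with KO medium replicate 2 left out and 5 with KO stimulated replicate 1 left out. Of 26 glycolysis and pentose phosphate genes 2 rose (7.69%), Pfkp by 0.75 ± 0.11, adjusted p = 0.0126 and Pfkm by 0.56 ± 0.10, adjusted p = 0.0242, both chains of phosphofructokinase. Ldha, lactate dehydrogenase, stood at 7.18 and 6.95 on the medium arrays and 7.50 and 7.66 on the stimulated arrays, and its change of 0.52 ± 0.13 did not pass (adjusted p = 0.0665). The glycolysis count was 0 with either KO medium array or KO stimulated replicate 2 left out and 1 with either WT stimulated array left out. Of 33 respiratory chain genes 1 rose (3.03%), Cycs, cytochrome c, at 0.88 ± 0.12, adjusted p = 0.0121. It was not called without KO medium replicate 1, KO medium replicate 2 or KO stimulated replicate 2. Of 28 cholesterol genes 4 rose (14.3%). Idi2, an isopentenyl diphosphate isomerase not well above background in medium, rose at least 12.8-fold. Its relative Idi1 rose by 1.49 ± 0.32, adjusted p = 0.043. The cholesterol count was 1 without any 1 array other than KO stimulated replicate 1 and 8 with KO stimulated replicate 1 left out.

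Protein folding genes rose in 10 of 23 chaperones tested, with none lower and a median of 0.56. Hspd1, the mitochondrial chaperonin, stood at 4.31 and 4.22 on the medium arrays and 5.29 and 5.80 on the stimulated arrays, and rose by 1.29 ± 0.20, adjusted p = 0.0177. Cct3, of the cytosolic chaperonin, rose by 1.02 ± 0.14, adjusted p = 0.012, and Hspa9, a mitochondrial Hsp70, by 1.0 ± 0.12, adjusted p = 0.00857. Hspa8, the constitutive Hsp70, stood at 7.66 and 7.59 on the medium arrays and 7.75 and 7.89 on the stimulated arrays, a change of 0.20 ± 0.11 that did not pass. The chaperone count was 2 with KO medium replicate 1 left out, 1 with KO medium replicate 2 left out, 5 with either WT stimulated array left out and 3 with KO stimulated replicate 2 left out. Of 29 proteasome subunits 2 rose, a share of 6.9% that lies near the 5.79% of all genes. They were Psma7, by 0.66 ± 0.12, adjusted p = 0.0309, and Psma4, by 0.58 ± 0.12, adjusted p = 0.0373. The median of the 29 was 0.33. The proteasome count was 1 with either WT medium array left out and 0 with either KO medium array or either WT stimulated array or KO stimulated replicate 2 left out.

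Of 29 G1 and early S genes of the cell cycle, 2 rose and 1 fell, shares of 6.90% and 3.45% that lie near the 5.79% and 2.23% of all genes. Ccnd2, cyclin D2, stood at 3.01 and 2.59 on the medium arrays and 4.94 and 5.33 on the stimulated arrays, and rose by 2.34 ± 0.19, adjusted p = 0.00256. Cdkn1a, the inhibitor p21, stood at -0.24 and 0.28 on the medium arrays and 1.64 and 2.66 on the stimulated arrays, and rose by 2.13 ± 0.34, adjusted p = 0.0187. Cdkn2d, the inhibitor p19, fell by 0.63 ± 0.14 (adjusted p = 0.0449). The G1 count of higher genes was 1 with either WT medium array or either KO medium array left out, and Cdkn2d was not called lower in any of the 8 fits that left out 1 array. None of 28 S phase and mitosis genes was called, and their median was -0.14. Mki67, a marker of cycling cells, stood at 3.14 and 4.28 on the medium arrays and 3.22 and 4.53 on the stimulated arrays, with replicate 2 the higher in each condition. Their list medians were -0.57, 0.57, -0.78 and 0.48 on the 4 arrays, beside neutrophil marker medians of -2.06, 2.06, -2.52 and 0.86. The part of other cells in these values was not tested.

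Survival and death genes of the Bcl2 family and caspases rose in 5 of 22 tested (22.7%) and fell in 1 (4.55%), beside 5.79% and 2.23% of all genes. Bcl2l1, which encodes Bcl-xL, stood at 3.26 and 3.27 on the medium arrays and 5.36 and 5.92 on the stimulated arrays, and rose by 2.38 ± 0.20, adjusted p = 0.00269. Bcl2 itself stood at 2.04 and 1.57 on the medium arrays and 4.15 and 3.85 on the stimulated arrays, and rose by 2.19 ± 0.19, adjusted p = 0.00284. Both inhibit mitochondrial cell death. Bcl2l11, the death-promoting Bim, also rose, by 0.79 ± 0.13, adjusted p = 0.02, while Bmf, a death-promoting relative, changed by -0.95 ± 0.17, adjusted p = 0.0259. Mcl1 stood at 6.02 and 5.90 on the medium arrays and 6.34 and 6.16 on the stimulated arrays, and did not pass. The higher count was 2 with either KO medium array left out and 3 with either WT stimulated array or KO stimulated replicate 2 left out, and the lower count was 0 without any 1 array other than KO stimulated replicate 1 and 2 with KO stimulated replicate 1 left out.

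Of 14 cytotoxic granule and serpin genes 6 rose and none fell. Serpina3f, a secreted serine protease inhibitor, stood at -1.58 and -0.67 on the medium arrays and 2.82 and 4.36 on the stimulated arrays, and rose by 4.72 ± 0.54, adjusted p = 0.00742. Gzmb, granzyme B, stood at -1.04 and -0.85 on the medium arrays and 1.94 and 3.86 on the stimulated arrays, with stimulated arrays 1.92 apart but clear of medium. It rose by 3.84 ± 0.57, adjusted p = 0.0148, and stayed called in 2 of the 4 fits that left out 1 KO array. Gzmc rose by 2.51 ± 0.29, adjusted p = 0.00786, and Serpinb9, an inhibitor of granzyme B, by 1.50 ± 0.23, adjusted p = 0.0155. Nkg7, a granule membrane protein, stood at 4.09 and 4.24 on the medium arrays and 4.39 and 4.78 on the stimulated arrays, and did not pass. The count was 2 with KO medium replicate 2 left out. Of 17 natural killer markers 1 rose (5.88%, near the 5.79% of all genes) and 3 fell (17.6%, beside 2.23%), with a list median of -0.39. The higher one was Gzma, which both lists hold, at 1.17 ± 0.13, adjusted p = 0.00739. Klrd1, the CD94 chain, stood at 5.21 and 4.93 on the medium arrays and 3.54 and 2.96 on the stimulated arrays, and fell by 1.81 ± 0.24 (adjusted p = 0.0103). The lower count of natural killer genes was 1 without any 1 array other than KO medium replicate 1 or KO stimulated replicate 1 and 0 with KO medium replicate 1 left out, and the higher count was 2 with KO stimulated replicate 1 left out. Of 18 B cell markers 1 rose (5.56%, near the 5.79% of all genes) and 3 fell (16.7%, beside 2.23%). Among the lower was Cd79b, a chain of the B cell receptor. It stood at 4.45 and 4.61 on the medium arrays and 3.70 and 3.79 on the stimulated arrays, with a change of -0.78 ± 0.12, adjusted p = 0.0182. The B cell lower count was 0 with either KO medium array or KO stimulated replicate 2 left out and 1 with either WT stimulated array or KO stimulated replicate 1 left out, and the higher count 0 without any 1 array other than the WT stimulated arrays.

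Of 35 genes of naive and quiescent T cells, 5 fell (14.3%) and 1 rose (2.86%), beside 2.23% and 5.79% of all genes. Their median was -0.61, beside -0.08 over all genes. With a replicate block within genotype, not used for the calls given here, 16 fell and 3 rose. S1pr1, the sphingosine phosphate receptor that lets T cells leave lymphoid tissue, stood at 4.91 and 4.53 on the medium arrays and 3.66 and 2.89 on the stimulated arrays, a fall to below both medium arrays on each stimulated array. Its change was -1.44 ± 0.28, adjusted p = 0.0321. Rasgrp2, an activator of the integrin regulator Rap1, stood at 3.18 and 3.16 on the medium arrays and 1.74 and 1.83 on the stimulated arrays, with replicates within 0.1 of each other, and its change was -1.38 ± 0.11, adjusted p = 0.00193. Tob1, an antiproliferative protein, changed by -1.53 ± 0.29, adjusted p = 0.0317, Dapl1 by -1.33 ± 0.29, adjusted p = 0.0447, and Txnip, which restrains glucose uptake, by -1.01 ± 0.21, adjusted p = 0.0402. Ly6c1, found on memory cells and induced by interferon, was the member that rose, at 1.11 ± 0.19, adjusted p = 0.0233. Klf2, the factor behind S1pr1 expression, stood at 7.35 and 7.02 on the medium arrays and 6.88 and 6.09 on the stimulated arrays. Its change of -0.70 ± 0.27 did not pass, though it was called lower with the replicate block. The list median was -0.34 on stimulated replicate 1 and -0.82 on replicate 2, relative to the KO medium mean, beside neutrophil marker medians of -2.52 and 0.86. The lower count of 5 was 1 without any 1 array other than KO stimulated replicate 1 and 13 with KO stimulated replicate 1 left out. Of the 5, Rasgrp2 was the one called in all 4 fits that left out 1 KO array. The higher count was 0 without any 1 array other than KO medium replicate 2 or KO stimulated replicate 1.

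Receptors and adhesion molecules that steer migration included called genes in both directions. Of 23 chemokine and lipid homing receptors 3 rose (13.0%) and 2 fell (8.7%), beside 5.79% and 2.23% of all genes. Ccr4, a receptor of Ccl17, stood at -1.12 and -1.37 on the medium arrays and 1.24 and 1.02 on the stimulated arrays, and rose by 2.37 ± 0.24, adjusted p = 0.00487. Ccr8, the receptor of Ccl1, stood at -2.62 and -2.76 on the medium arrays and -1.13 and -0.40 on the stimulated arrays, and rose by 1.92 ± 0.24, adjusted p = 0.00911. Their ligands Ccl17 and Ccl1 were called higher in the same cultures. Ptger4, a prostaglandin E2 receptor, rose by 1.19 ± 0.15, adjusted p = 0.00993. Besides S1pr1, Cxcr1, an interleukin-8 type receptor, changed by -1.54 ± 0.22, adjusted p = 0.0131. Ccr7, which guides naive cells to lymph nodes, stood at 7.37 and 6.93 on the medium arrays and 6.62 and 6.33 on the stimulated arrays, and Cxcr3, the receptor of Cxcl9 and Cxcl10, at 5.43 and 5.16 on the medium arrays and 4.77 and 4.43 on the stimulated arrays. Their changes of -0.68 ± 0.19 and -0.70 ± 0.17 did not pass, with adjusted p of 0.0878 and 0.0617. The lower count was 1 without any 1 array other than the KO stimulated arrays, 4 with KO stimulated replicate 1 left out and 0 with KO stimulated replicate 2 left out, and the higher count 1 with KO medium replicate 2 left out.

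Of 22 integrins, selectin ligands and Icams, 2 rose (9.09%) and 1 fell (4.55%), counts too small to set apart from the 5.79% and 2.23% of all genes. Icam1, the ligand of the integrin LFA-1, stood at -0.86 and -1.04 on the medium arrays and 0.11 and 0.58 on the stimulated arrays, and rose by 1.30 ± 0.18, adjusted p = 0.0126. Itgb3, the integrin beta-3 chain, rose by 1.27 ± 0.16, adjusted p = 0.0087. Cd99l2, an adhesion molecule of leukocyte exit from vessels, changed by -0.97 ± 0.19, adjusted p = 0.0328. The higher count was 0 with KO medium replicate 2 left out, and the lower count 0 without any 1 array other than KO stimulated replicate 1 and 2 with KO stimulated replicate 1 left out. Of 58 actin and motility regulators, the group to which Lsp1 belongs, 1 rose and 1 fell, a share of 1.72% each way. Lcp1, the actin bundler L-plastin, stood at 5.64 and 5.92 on the medium arrays and 6.37 and 6.40 on the stimulated arrays, and rose by 0.60 ± 0.13, adjusted p = 0.0465. Rasgrp2 was the one that fell. Lcp1 was not called in any fit that left out 1 array. Coro1a, coronin, stood at 8.27 and 8.03 on the medium arrays and 8.01 and 7.86 on the stimulated arrays, and Arpc2, of the Arp2/3 complex, at 7.92 and 7.75 on the medium arrays and 7.73 and 7.66 on the stimulated arrays, and neither passed. The median of the 58 genes was -0.14, beside -0.08 over all genes. The lower count was 2 with KO medium replicate 2 left out and 3 with KO stimulated replicate 1 left out.

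**Figure D4:**
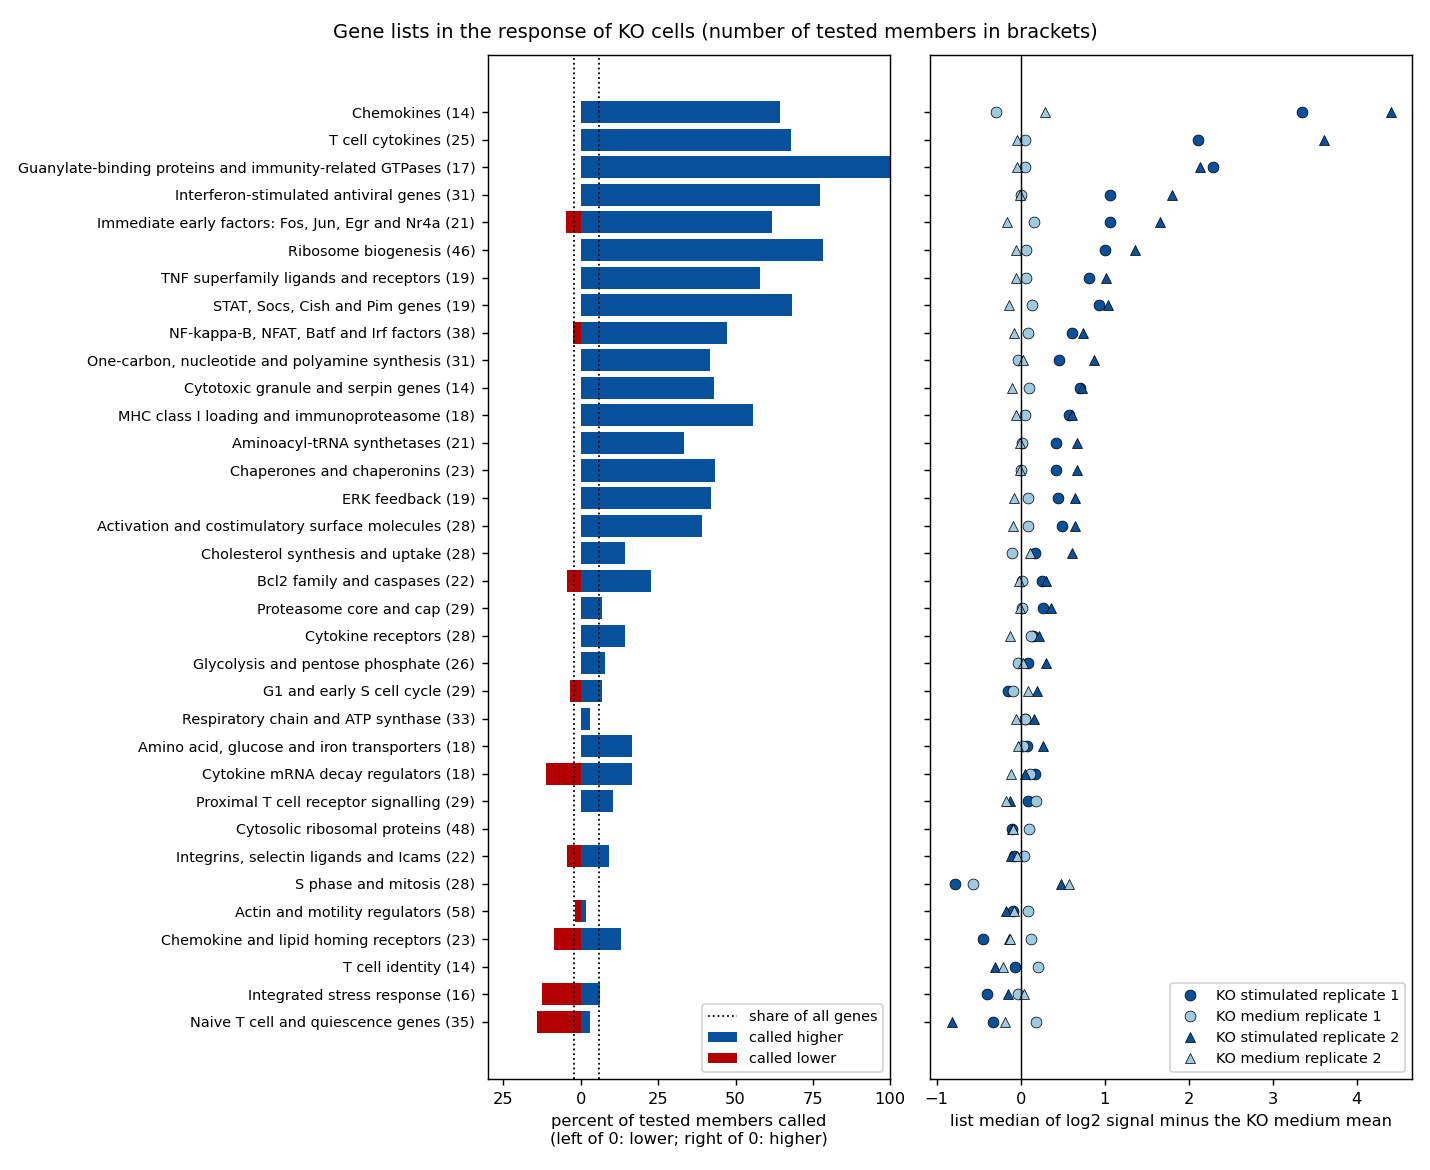
Gene lists of T cell biology ordered by median change, with the percentage of tested members called higher (blue, to the right) or lower (red, to the left) and, on the right, the list median of normalized log2 signal minus the KO medium mean on each KO array. Dotted lines mark the shares over all genes, 5.79% higher and 2.23% lower, and guanylate-binding proteins and immunity-related GTPases have all 17 members called higher.

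Outside these lists, the largest increases among genes measured in both conditions included 3 with other roles. Hpdl, a relative of hydroxyphenylpyruvate dioxygenase, stood at -4.99 and -4.88 on the medium arrays and -0.66 and 0.05 on the stimulated arrays, and rose by 4.63 ± 0.32, adjusted p = 0.00142. Mfsd2a, a lysophospholipid transporter, stood at -2.84 and -2.51 on the medium arrays and 1.44 and 2.36 on the stimulated arrays, and rose by 4.58 ± 0.30, adjusted p = 0.00136. Lad1, ladinin, rose by 4.42 ± 0.23, adjusted p = 0.000701. All 3 kept their calls in the 4 fits that left out 1 KO array. Among genes not well above background in KO medium, Hbegf, a growth factor of the EGF family, rose at least 18.8-fold and Fzd9, a Wnt receptor, at least 16.3-fold. Of the higher genes, 36 were not well above background on either medium array.

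The largest decreases were smaller than the largest increases. Rab7b, a small GTPase of late endosomes, stood at -0.75 and 0.72 on the medium arrays and -3.31 and -3.05 on the stimulated arrays, with medium replicates 1.46 apart and both above stimulated cells. It fell by 3.16 ± 0.46 (adjusted p = 0.0134). Thbd, thrombomodulin, stood at 0.19 and 0.75 on the medium arrays and -1.91 and -1.65 on the stimulated arrays, and fell by 2.25 ± 0.21 (adjusted p = 0.00372). Elovl7, a fatty acid elongase, stood at 0.0 and -0.42 on the medium arrays and -2.07 and -2.11 on the stimulated arrays, with stimulated replicates 0.03 apart, and changed by -1.88 ± 0.20, adjusted p = 0.0062. Atp6v0d2, a proton pump subunit, changed by -1.82 ± 0.24, adjusted p = 0.0107. Thbd and Elovl7 were called in all 4 fits that left out 1 KO array, and Rab7b and Atp6v0d2 in 3.

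Of the lower genes, 41 were not well above background on either stimulated array. P2ry6, a receptor for UDP, was at -3.59 and -2.55 in medium and fell at least 5.99-fold (adjusted p = 0.0103). Clec4a4, a lectin of dendritic cells, was at -4.05 and -3.31 and fell at least 4.27-fold (adjusted p = 0.0103). Hpgd, which degrades prostaglandins, fell at least 3.57-fold, Mycl, a Myc relative, at least 3.30-fold, and Tlr11 at least 2.70-fold. For all 5 genes medium replicate 2 was the higher. Monocyte, macrophage and dendritic cell marker medians on the 4 arrays were -0.34, 0.34, -0.19 and 0.63, with none of the 21 called, and the part of these cells in the decreases was not tested. Hpgd kept its call in 1 of the 4 fits that left out 1 KO array, Mycl in 2, Clec4a4 in 3, and P2ry6 and Tlr11 in all 4.

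The gaps between stimulated replicates were widest in Cxcl9 (3.49 log2 units), Ptgs2, Cxcl10, Tcaf3, Ubd and Gzmb among called genes. Ptgs2, the inducible cyclooxygenase, stood at -8.29 and -7.70 on the medium arrays and -4.46 and -1.48 on the stimulated arrays. It was not well above background in medium and rose at least 8.59-fold (adjusted p = 0.0249). Tcaf3, a channel-associated factor, stood at -6.66 and -7.94 on the medium arrays and -2.53 and -4.63 on the stimulated arrays, rose at least 5.62-fold, and was the only one of the 6 with replicate 1 the higher. Neutrophil markers were likewise higher on stimulated replicate 2, with medians of -2.52 and 0.86. The part of the other cells in these gaps was not tested.

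WT cells were set beside these values to ask whether any response differed with Lsp1. Stimulation called 6.38% of genes higher and 3.88% lower in WT cells, in the same fit. Of the 1215 genes called in KO cells, 985 were called in WT cells in the same direction, 81.1% of the KO calls and 63.4% of the 1554 WT calls. The other 230 were not called there, and 222 of them had the same sign. The 4 markers changed in WT cells by 5.87 (Il2), 4.03 (Irf4), 3.97 (Car12) and 4.66 (Ubd). Their differences between responses, KO minus WT, were 0.93 ± 0.45, 0.04 ± 0.19, 1.1 ± 0.30 and 0.68 ± 0.90, and none passed (limma, adjusted p = 1.0 for each). List medians in KO and WT cells were 2.86 and 2.56 for cytokines, 3.95 and 3.75 for chemokines, 1.21 and 1.11 for immediate early factors, 2.23 and 2.50 for guanylate-binding and immunity-related GTPases, 1.19 and 1.04 for ribosome biogenesis and -0.61 and -0.58 for naive T cell genes. No member of any of the 40 lists passed the test of the difference. That test had 2 arrays a group, so a p that missed its threshold does not show that the responses were alike.

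A single gene passed the test of the difference, 0.00661% of those tested, and 456 genes had an unadjusted p below 0.05. Olfr325, an odorant receptor gene, was not well above background on any KO array, at -8.60 and -8.22 on the medium arrays and -8.09 and -8.13 on the stimulated arrays, nor on the WT medium arrays, and reached -4.40 and -4.54 in stimulated WT cells, at least 4.05-fold above WT medium. The fit gave the difference between responses an adjusted p of 0.0393, from values of which 6 of 8 were not well above background, so that its size was not measured. It was called in none of the 8 fits that left out 1 array, where its adjusted p lay between 0.0521 and 0.193. The adjusted p was 1.0 under normexp correction of the median signal and with the deposited median signal. Gpr39 had a like pattern and did not pass (adjusted p = 0.0555). Sox5, a transcription factor, ran the other way. It stood at -8.41 and -7.67 on the medium arrays and -3.92 and -4.30 on the stimulated arrays of KO cells. It was not well above background in KO medium and rose at least 3.90-fold in KO cells. Its difference from the WT response did not pass (adjusted p = 0.238).

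**Figure D5:**
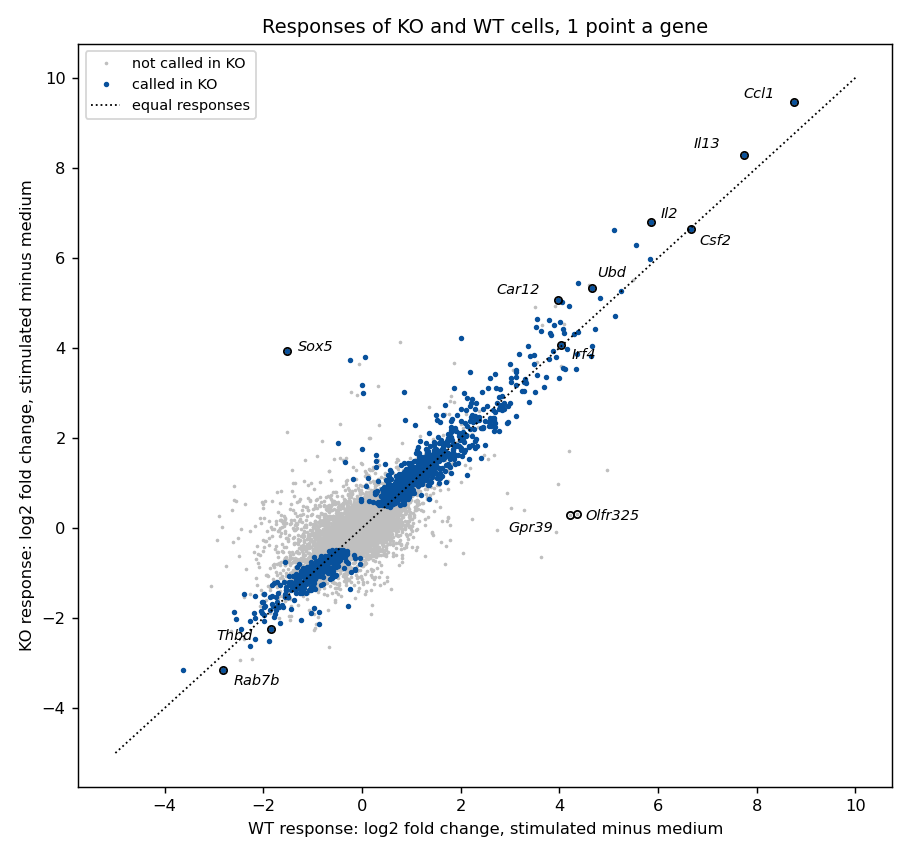
Log2 fold change on stimulation in KO cells (vertical) against that in WT cells (horizontal), 1 point a gene, with genes called in KO cells in blue and the rest in grey. Of the 1215 blue genes, 8 have the opposite sign in WT cells. Genes not well above background are plotted at their fitted values. Relative to the dotted line of equal responses, Olfr325, Gpr39 and Sox5 lie far out.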

How the data were processed

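RNA from 8 samples was hybridised in 1 colour (Cy3) to Agilent mouse arrays, all 8 on 1 slide, with treatment varying by row and genotype by column, so that slide position cannot be told apart from group. The deposited files hold spot intensities on a linear scale. Per the file headers the authors used Agilent Feature Extraction, version 10.7.1.1, whose processed signal is background-subtracted. Log2 of the deposited processed intensity was centred on each array's 75th percentile of non-control probes, outlier spots were left out, and spots of a probe were averaged. A probe was kept where both arrays of some group had it well above background (37255 of 55681). Through accessions (RefSeq, GRCm38.p6), 26056 probes were named and 29625 were not. The brightest probe stood for each of 15138 genes, 3846 of which had more than 1. In 10 called genes another probe had the opposite sign, none of them called. Array number, 2 a group, limits the precision. An exact permutation test of 2 against 2 cannot go below 0.333.

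All 8 arrays entered limma 3.58.1 (R 4.3.3), 1 mean a group, with 4 residual degrees of freedom and a threshold of 0.05 on Benjamini-Hochberg adjusted p, two-sided. Errors are moderated standard errors of log2 fold changes, n = 2 a group. The spread of each gene was pooled over all groups. KO replicates varied more than WT replicates, so errors and p-values of the KO response can understate the KO spread. Genes named are Lsp1, the 4 markers, the 12 largest changes each way among genes measured in both groups, the 8 largest bounds each way, up to 6 called and 3 uncalled members of each list, the 6 smallest p of the difference, the 6 widest stimulated gaps, and the 4 brightest genes of each list of other cells. A selection of these is given, and others are said to be chosen after their values were seen. Some genes are not reported here. The members, markers and gene lists were chosen with earlier results of these data known. Promoter runs are from RefSeq, GRCm38.p6, with 27025 genes covered. The alternatives were quantile or detected-probe scaling, the authors' series matrix (equal to the scanner's median signal), normexp with an offset of 50, filters, mean of probes, variance models, a replicate block and left-out arrays. Normexp was planned on the mean signal, a column that the array files do not hold. It was run on the median signal instead, a choice made after seeing the data.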

Additional observations from a re-analysis of the deposited data

Results flagged for a closer look

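Olfr325 was marked because its response to stimulation differed between the genotypes in the test of that difference across all genes (limma, adjusted p = 0.0393). The fitted difference, KO response minus WT response, was -4.05 ± 0.24 (log2), which rests on 6 arrays not well above background and is no measured size. KO cells stood at -8.60 and -8.22 on the medium arrays and -8.09 and -8.13 on the stimulated arrays, none well above background. WT cells stood at -8.67 and -8.97 in WT medium and -4.40 and -4.54 in stimulated WT cells, with both stimulated WT arrays well above background. It was the only gene of 15138 called, at 2 arrays a group. Under normexp correction of the median signals the fitted difference was -1.28, and it was called in none of the 8 fits that left out 1 array.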

How the results depend on the processing

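In 21 alternatives the 146 called genes named in the text all kept the direction of their change, and between 18 and 146 of them kept their call, with 130 testable under the filter on all 8 arrays. Calls were lost by 46 and 57 of them without KO medium replicate 1 and 2, by 14 and 39 without KO stimulated replicate 1 and 2, by 24 without either WT medium array and by 33 without either WT stimulated array. The counts of genes higher and lower in KO cells, 877 and 338, lay between 290 and 970 and between 71 and 517 when 1 array was left out. They were 36 and 1 with the 4 KO arrays alone, 346 and 104 with both KO arrays numbered 2 left out, 1104 and 531 with a variance trend and robust fit, 595 and 111 with array weights, 644 and 165 with no filter on dim probes, and 528 and 162 at 2-fold or more. The difference count of 1 lay between 0 and 1 when 1 array was left out. It was 3 with quantile normalization. It was 0 with normexp on the median signal, the series matrix, no filter, a filter on all 8 arrays, the trend and robust fit, or both KO arrays of 1 number left out. Without WT stimulated replicate 1 the 1 gene called was Kcna10, named after its value was seen, and not Olfr325. The cause of these changes was not tested.

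With a replicate block within genotype the counts were 1354 higher, 1425 lower and 0 in the difference. Of 35 naive and quiescent T cell genes 3 were then higher and 16 lower, in place of 1 and 5, and of 18 neutrophil markers 10 were lower, in place of 0. Of the 28 named genes not called, 7 were then called lower, Ccr7, Cd28, Cxcr3, Il7r, Jak1, Klf2 and Mpo. Same-numbered KO samples deviated together (r = 0.742 across genes), and WT samples less so (r = 0.161). With only 2 pairs a genotype and no label of a shared animal or batch, the numbers were not taken as pairing.

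Of uncalled genes named, Hbb-bt ranged from -1.45 to 1.95 when 1 array was left out, Ifitm3 from -0.55 to 1.98, Mki67 from -0.49 to 0.82 and Mpo from -2.49 to 0.65. Npm1 was -0.027 with both KO arrays numbered 2 left out. Normexp on the mean signal was not run. Dim genes are bounded by background, which limits the "at least" folds.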

Other observations

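Genes that control the decay of cytokine mRNA included called genes in both directions in KO cells. Of 18 tested, 3 were higher (16.7%) and 2 lower (11.1%), beside 5.79% and 2.23% of all genes. Zfp36, tristetraprolin, which destabilises mRNAs with AU-rich elements, stood at 0.05 and -0.04 on the medium arrays and 0.81 and 0.91 on the stimulated arrays, and rose by 0.86 ± 0.13, adjusted p = 0.0142 (limma). Its relative Zfp36l2 stood at 6.84 and 6.62 on the medium arrays and 5.60 and 5.40 on the stimulated arrays, with every stimulated array at least 1 log2 unit below every medium array, and changed by -1.23 ± 0.13, adjusted p = 0.00626. Zc3h12d, of the Regnase family of RNA-cleaving proteins, rose by 0.53 ± 0.11, adjusted p = 0.0406. N4bp1, an endonuclease, rose by 1.09 ± 0.21, adjusted p = 0.034. Tob1, which recruits mRNA deadenylases, was also among the lower genes and stands with the quiescence genes. The higher count was 0 with either KO medium array or KO stimulated replicate 2 left out and 1 with either WT stimulated array left out, and the lower count 1 without any 1 array other than KO stimulated replicate 1.

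Of 16 genes of the integrated stress response and unfolded protein response, 1 rose (6.25%) and 2 fell (12.5%). The shares of all genes were 5.79% and 2.23%. Hspa5, the chaperone BiP of the endoplasmic reticulum, stood at 5.46 and 5.57 on the medium arrays and 6.10 and 6.46 on the stimulated arrays, and rose by 0.76 ± 0.15, adjusted p = 0.0344. Trib3, a pseudokinase target of this pathway, stood at 3.15 and 2.65 on the medium arrays and 1.60 and 1.66 on the stimulated arrays, and changed by -1.27 ± 0.21, adjusted p = 0.0192. Xbp1, a transcription factor of the unfolded protein response, stood at 6.93 and 7.04 on the medium arrays and 6.12 and 6.33 on the stimulated arrays, and changed by -0.77 ± 0.14, adjusted p = 0.0268. In each of these 3 genes, as in every called gene, the conditions did not overlap. Atf4, the central factor of the integrated stress response, stood at 6.52 and 6.49 on the medium arrays and 6.55 and 6.89 on the stimulated arrays, a change of 0.21 ± 0.14 that did not pass. The higher count was 0 without any 1 array other than KO stimulated replicate 1, and the lower count 0 with KO medium replicate 1 or either WT stimulated array or KO stimulated replicate 2 left out and 1 with KO medium replicate 2 or KO stimulated replicate 1 left out.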
